A study of Homo sapiens
Mus musculus with 6 samples.

Results

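Oxidative phosphorylation genes encode the subunits of the mitochondrial respiratory chain and of ATP synthase, with some of the factors that assemble them. They were followed in 3 human HEK cell lines by RNA sequencing of co-cultures. The rule for membership used gene names, although it was set with earlier results of these data known. In all, 107 entries of the human gene table begin with NDUFA, NDUFB, NDUFC, NDUFS, NDUFV, UQCR, COX4, COX5, COX6, COX7, COX8, ATP5 or SDHA to SDHD. Of these, 95 held at least 100 reads summed over the 6 wells and are described here, out of 23855 entries in the human table. They comprise 78 subunits, 11 assembly factors and 6 pseudogenes or antisense transcripts. The subunits are 37 of complex I, 4 of complex II, 9 of complex III, 12 of complex IV and 16 of complex V. All 95 passed the filter on low counts and were tested.

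Complexes I and II take electrons from NADH and from succinate and pass them to coenzyme Q. Complex III passes them to cytochrome c, and complex IV to oxygen. Complexes I, III and IV pump protons as they do so, and complex V, the ATP synthase, uses the returning protons to make ATP. Complexes I, III, IV and V each combine subunits encoded in the nucleus with subunits encoded in mitochondrial DNA, while complex II is encoded in the nucleus alone. HEK293 cells are a fast-growing line from human embryonic kidney that relies on both glycolysis and respiration.

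Each well held human cells of the HEK-293-Flp-In line, which carries a recombination site for a transgene, and mouse C2C12 myoblasts, precursors of skeletal muscle. The human cells were HEK-control, HEK-Jag1WT, which carries wild-type Jag1, a ligand of Notch receptors, or HEK-Jag1Ndr, which carries Jag1 with the Nodder mutation. The mouse cells were C2C12-control or C2C12-Notch1, a line carrying full-length Notch1. Each of the 6 combinations had 1 well, so each HEK line was read in 2 wells, beside a different mouse line in each. All mouse cells, the controls included, were transfected with the plasmid pcDNA5 at 1.6 ug per well, 8 h after seeding. HEK cells were added 18 h after transfection and the wells were lysed after 6 h together. The Jag1 lines had been kept under hygromycin at 300 ug/mL and the Notch1 line under puromycin at 1 ug/mL, and the labels name neither drug for the control lines. The labels do not say how many clones a line holds, and no label names separate cultures, so the p-values given here rest on well-to-well spread alone, which may be technical. Transgene, selection and the history of a line cannot be told apart here.

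Human gene reads ranged from 4081452 to 10292878 per well. Mouse reads made up 47.2% to 52.7% of gene reads beside C2C12-control and 29.6% to 36.5% beside C2C12-Notch1. Reads of the mouse gene Jag1 numbered 110 and 280 in the HEK-control wells, against 42347 to 63416 in the 4 Jag1 wells. All 12 HEK293 markers (KRT8, KRT18, KRT19, LIN28B, NEFL, NEFM, TUBB3, PAX2, EYA1, WT1, HOXA9 and HOXC8) had reads in every well, although NEFM averaged 0.618 RPKM. Not all of them set HEK cells apart from the mouse cells. The mouse genes of NEFL, TUBB3, KRT19 and NEFM averaged 116, 69.1, 41.8 and 41.1 RPKM, against 96.0, 8.51, 57.0 and 0.618 for the human genes. Those of KRT18, PAX2 and WT1 stood at 0. For the marker sums of this paragraph, CPM are read counts scaled to the human gene reads of each well, without TMM factors. The 12 HEK293 markers summed to 890 to 896 CPM in HEK-control, 1348 to 1455 in HEK-Jag1WT and 767 to 851 in HEK-Jag1Ndr. This sum follows NEFL, which differed from HEK-control by 1.70 in HEK-Jag1WT and -1.24 in HEK-Jag1Ndr on the log2 scale, while KRT8 was lower in HEK-Jag1WT, at -0.36, and LIN28B higher in HEK-Jag1Ndr, at 0.77. The 12 markers of muscle or fibroblast cells summed to 26.0 to 27.0 CPM in HEK-control, 14.7 to 19.2 in HEK-Jag1WT and 42.2 to 48.4 in HEK-Jag1Ndr. Most of this was COL1A1 and COL3A1, with 735 and 236 reads in all. Of the 8 muscle genes, MYF5, MYOG, MYL1 and TNNT3 stood at 0 in every well, while MYOD1 had 9 reads over the 6 wells, DES 21, ACTA1 35 and PAX7 133. These marker sums differ between the HEK lines along with the comparisons below, and their part in the results was not tested.

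Taken as a group, the 95 genes made up under 1% of human reads in each line. The genes held 0.858% ± 0.000256 (SD, n = 2) in HEK-control, 0.884% ± 0.0293 in HEK-Jag1WT and 0.844% ± 0.0277 in HEK-Jag1Ndr. In RPKM, the deposited values scaled to the length of the gene model and to library size, the median subunit stood at 87.3 ± 1.78, 90.9 ± 3.29 and 85.3 ± 2.32 in the same order. The median of all tested human genes was 12.2 ± 0.0115 RPKM in HEK-control. ATP5O, which joins the catalytic head of ATP synthase to its stalk, was the highest at 436 RPKM over the 6 wells, 67th among tested genes. COX7C of complex IV followed at 430, ATP5B, the catalytic beta subunit of ATP synthase, at 388, and UQCRH, the hinge protein of complex III, at 346. The top places are close: ATP5O had an SD of 48.9 and COX7C of 41.3 over the wells, so their order is not resolved.

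**Figure D1:**
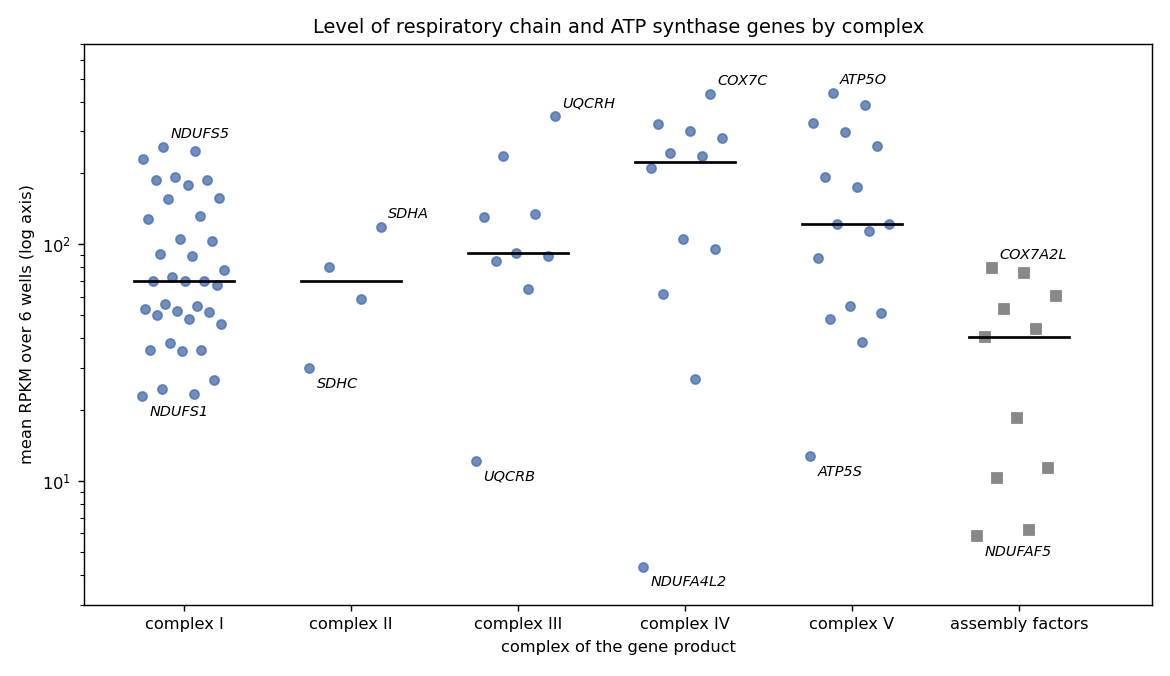
Mean RPKM over 6 wells (log axis) of each subunit gene by complex and of the assembly factors. Each point is 1 gene and the bar is the median of its group. Complex IV has the highest median, 222 RPKM, and the assembly factors mostly sit under the subunits.

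Levels differed more within a complex than between complexes. The 37 complex I subunits ran from NDUFS1 at 22.7 RPKM, a core subunit that carries iron-sulphur clusters, to NDUFS5 at 257 RPKM, with a median of 70.0. In complex II, SDHA, the flavoprotein, was highest at 118 RPKM, 3.94 times SDHC, a membrane anchor, and the median was 69.6. Medians were 91.8 for complex III, 222 for complex IV and 122 for complex V. The first is the value of UQCRHL, a near copy of UQCRH that is counted with the subunits. The lowest subunits were NDUFA4L2 at 4.35 RPKM, UQCRB at 12.1 and ATP5S at 12.8. RPKM of a gene depends on the length of its model: UQCRB had as many as 2064 reads but an implied model length of 4455 bases, against 352 for UQCRH. COX7B of complex IV varied least across the wells relative to its mean, at 242 ± 6.95 RPKM (SD, n = 6).

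Complex IV has isoforms for certain tissues, which were near or at 0. COX4I1, COX6A1, COX6B1, COX7A2 and COX8A, the widely expressed forms, stood at 321, 301, 281, 209 and 235 RPKM. COX4I2, COX6A2 and COX7B2 were listed with 0 reads in all wells, and COX7A1, COX6B2 and COX8C had 7, 10 and 15 reads in total. In the mouse table of the same wells, the muscle forms Cox6a2 and Cox7a1 stood at 2.02 and 3.51 RPKM beside 435 for Cox6a1. NDUFA4L2, a paralogue of NDUFA4 known from hypoxic cells, held 191 reads over the 6 wells against 2060 for NDUFA4. Just inside the limit of 100 reads were the pseudogenes SDHAP2 with 101 and SDHAP1 with 138, and just outside were NDUFB2-AS1 with 84 and ATP5L2 with 33. None of 26 mitochondrially encoded symbols, such as MT-ND1 or MT-CO1, had an entry in the human table, so the products of mitochondrial DNA were not analysed here.

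NDUFB11, an X-linked accessory subunit in the membrane arm of complex I, was higher in HEK-Jag1WT than in either other line. Its reads numbered 726 and 1838 in HEK-control, 1248 and 1155 in HEK-Jag1WT and 1324 and 1177 in HEK-Jag1Ndr, here and below giving the well beside C2C12-control first. Scaled to the human library size with TMM factors, as for all CPM from here on, that is 178 and 181 CPM, then 237 and 215, then 185 and 179.6. Both HEK-Jag1WT wells lay above the other 4, which overlapped one another. The difference between HEK-Jag1WT and HEK-control was 0.33 on the log2 scale (SE 0.061, a 1.25-fold rise, edgeR quasi-likelihood test with Benjamini-Hochberg adjustment over all 13596 tested human genes, adjusted p = 7.03e-06). HEK-Jag1Ndr was lower than HEK-Jag1WT at a log2 difference of -0.31 (SE 0.060, adjusted p = 1e-05). Against HEK-control it differed by 0.01 (SE 0.061, adjusted p = 0.883). NDUFA1, the other X-linked accessory subunit of complex I, was higher in HEK-Jag1WT than in HEK-control by 0.29 (SE 0.080, adjusted p = 0.00153). This call was lost without the HEK-Jag1WT well beside C2C12-Notch1 (0.28).

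The 3 HEK lines were then compared with each other across all genes, in a model with a term for the HEK line and a term for the C2C12 line, calling a gene at an adjusted p under 0.05. Between HEK-Jag1WT and HEK-control, 22 oxidative phosphorylation genes were higher and 24 lower, 46 of 95. The background is high, since 54.3% of all tested genes were called in this comparison, 24.9% higher and 29.4% lower. Between HEK-Jag1Ndr and HEK-control 14 were higher and 15 lower, 29 of 95, against 46.1% of all genes, 22.6% higher and 23.5% lower. Between the Jag1 lines, 23 were higher in HEK-Jag1Ndr and 33 lower, 56 of 95, against 57.7% of all genes, 29.2% higher and 28.5% lower. Median log2 differences were 0.01, -0.02 and -0.08, beside -0.03, -0.01 and -0.01 over all tested genes. The comparisons share wells: HEK-control serves the first and the second, and each Jag1 line serves 2 of the 3.

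The changes were small. The SD of the log2 difference over the 95 genes was 0.31, 0.29 and 0.38 in the 3 comparisons, against 0.72, 0.61 and 0.80 over all tested genes, many of which have far fewer reads. Among 4064 genes in the middle range of the members' reads, 1516 to 4385.5, the shares called were 61.6%, 52.2% and 65.4%. Their middle 50% ran from -0.30 to 0.25, from -0.22 to 0.20 and from -0.29 to 0.31, against -0.21 to 0.20, -0.16 to 0.16 and -0.25 to 0.18 for the 95. A difference past 0.5 in size was seen in 11, 8 and 14 of the 95, or 11.6%, 8.42% and 14.7%, against 31.9%, 24.4% and 35.0% of all genes. Past a doubling there was 1, the antisense transcript NDUFA6-AS1 between the Jag1 lines. Of the 95 genes, 23 were called in none of the 3 comparisons, 19 in 1, 47 in 2 and 6 in all 3. Every called gene had the same sign beside both C2C12 lines. The counts rest on few wells, and 20, 14 and 26 of the calls held whichever single well was left out. Without the HEK-Jag1WT well beside C2C12-Notch1 or beside C2C12-control, HEK-Jag1WT differed from HEK-control in 29 or 28 genes. Without the HEK-Jag1Ndr well beside C2C12-Notch1, HEK-Jag1Ndr differed from HEK-control in 19, and without the HEK-Jag1WT well beside C2C12-control the Jag1 lines differed in 35.

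**Figure D2:**
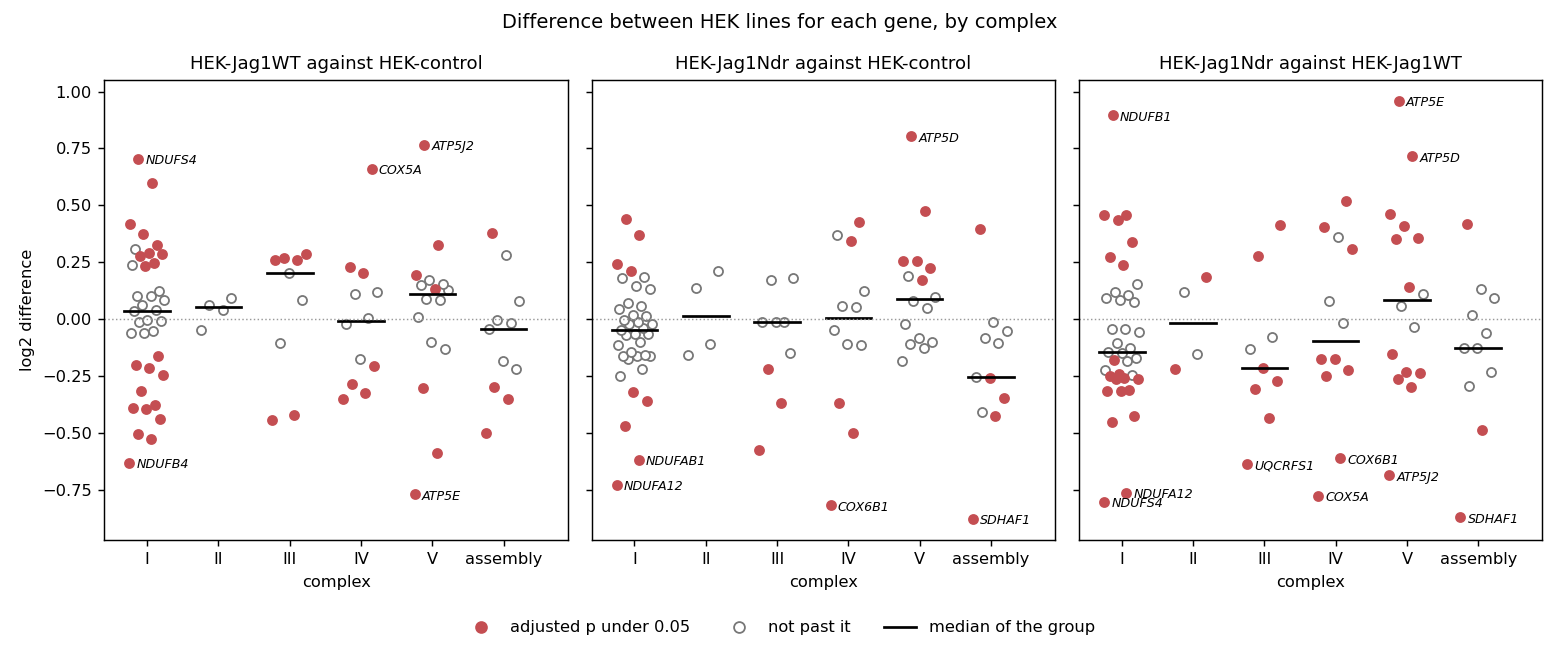
The log2 difference of each subunit gene by complex, and of the assembly factors, in the 3 comparisons of HEK lines. Filled points have an adjusted p under 0.05 and bars are medians. Complexes I and IV have filled points on both sides of 0 in each comparison. Complex V in HEK-Jag1Ndr against HEK-control has 6 above and 0 below, and 0 of 4 complex II genes are filled in either comparison with HEK-control.

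Within complex I, single subunits moved in opposite directions in each comparison. In HEK-Jag1WT 10 of 37 were higher and 12 lower than in HEK-control, in HEK-Jag1Ndr 4 were higher and 5 lower, and between the Jag1 lines 7 were higher in HEK-Jag1Ndr and 13 lower. The median log2 differences were 0.03, -0.05 and -0.15. Of all tested genes, 24.9% were higher and 29.4% lower in the first comparison, 22.6% and 23.5% in the second and 29.2% and 28.5% in the third. Of the 7 core subunits, which carry the flavin and the iron-sulphur clusters, 2 were higher (NDUFS1 and NDUFV2) and 2 lower (NDUFS7 and NDUFS8) in HEK-Jag1WT. NDUFS1 was also higher and NDUFS8 also lower in HEK-Jag1Ndr than in HEK-control. NDUFV2, which binds an iron-sulphur cluster beside the NADH site, stood at 15.4 and 13.2 CPM in HEK-control, 19.9 and 17.5 in HEK-Jag1WT and 12.96 and 15.0 in HEK-Jag1Ndr. Its difference in HEK-Jag1WT was 0.42 (SE 0.16, adjusted p = 0.0246). The call was lost without the HEK-control well beside C2C12-Notch1 (0.28, adjusted p = 0.352) or the HEK-Jag1WT well beside C2C12-control (0.36, adjusted p = 0.166). None of these core calls held whichever single well was left out.

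Among the 30 accessory subunits, NDUFS4 rose most in HEK-Jag1WT. This subunit helps to hold the NADH-oxidising module on the complex and is a known gene of Leigh syndrome. It stood at 26.4 and 26.3 CPM in HEK-control, 46.9 and 40.1 in HEK-Jag1WT and 25.1 and 24.7 in HEK-Jag1Ndr. Both HEK-Jag1WT wells lay above the other 4, with a log2 difference of 0.71 from HEK-control (SE 0.12, adjusted p = 4.93e-07) and of -0.80 between HEK-Jag1Ndr and HEK-Jag1WT (SE 0.12, adjusted p = 1.73e-08). NDUFA5, an accessory subunit of the peripheral arm, followed with 61.4 and 54.4, then 81.7 and 90.1, then 60.8 and 64.9 CPM. Its rise in HEK-Jag1WT was 0.60 (SE 0.089, adjusted p = 4.39e-08). NDUFB2 rose there by 0.38 (SE 0.079, adjusted p = 4.67e-05).

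NDUFB1, a small subunit of the membrane arm, moved in opposite directions in the Jag1 lines. It stood at 55.8 and 58.9 CPM in HEK-control, 40.7 and 39.5 in HEK-Jag1WT and 75.1 and 74.0 in HEK-Jag1Ndr, so that the 3 lines did not overlap. The log2 difference from HEK-control was -0.53 in HEK-Jag1WT (SE 0.10, adjusted p = 8.38e-06) and 0.37 in HEK-Jag1Ndr (SE 0.086, adjusted p = 0.000296). Between the Jag1 lines it was 0.90 (SE 0.095, adjusted p = 1.73e-12), the largest of any complex I subunit. NDUFB4, NDUFB7 and NDUFA11, all of the membrane arm, were also lower in HEK-Jag1WT than in HEK-control, at log2 differences of -0.63, -0.51 and -0.44, and higher in HEK-Jag1Ndr than in HEK-Jag1WT, by 0.46, 0.44 and 0.46. For NDUFA11 the last was 0.28 without the HEK-Jag1Ndr well beside C2C12-control. NDUFB4 stood at 66.8 and 73.3 CPM in HEK-control, 44.3 and 47.0 in HEK-Jag1WT and 64.5 and 60.4 in HEK-Jag1Ndr.

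In HEK-Jag1Ndr, NDUFA12 fell most among complex I subunits. It is an accessory subunit of the peripheral arm. Its level was 64.9 and 58.3 CPM in HEK-control, 65.2 and 59.5 in HEK-Jag1WT and 33.5 and 40.1 in HEK-Jag1Ndr. Both HEK-Jag1Ndr wells lay below the other 4, with a log2 difference of -0.73 from HEK-control (SE 0.10, adjusted p = 9.2e-09) and -0.76 from HEK-Jag1WT (SE 0.10, adjusted p = 2.75e-09). NDUFAB1, the mitochondrial acyl carrier protein, which also serves fatty acid synthesis, stood at 58.8 and 61.4 CPM in HEK-control, 46.5 and 45.3 in HEK-Jag1WT and 38.9 and 39.7 in HEK-Jag1Ndr. It was lower than HEK-control in both Jag1 lines, at -0.39 and -0.62 on the log2 scale, the first call being lost without the HEK-Jag1WT well beside C2C12-Notch1 (-0.31, adjusted p = 0.0843), and the difference between the Jag1 lines was -0.23 (adjusted p = 0.0557). NDUFB10 was lower in HEK-Jag1Ndr at -0.47 (SE 0.082, adjusted p = 4.06e-06). Without the HEK-Jag1Ndr well beside C2C12-Notch1 this was -0.25 (adjusted p = 0.0569), and without the HEK-control well beside C2C12-Notch1 -0.27. NDUFB3 was higher by 0.44 (SE 0.13, adjusted p = 0.00334), and by 0.31 without the same HEK-Jag1Ndr well (adjusted p = 0.199). NDUFS5, the complex I subunit with the highest RPKM, was lower in both Jag1 lines, at -0.40 and -0.32.

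Complex II is succinate dehydrogenase. None of its 4 subunits was called in HEK-Jag1WT or in HEK-Jag1Ndr against HEK-control by edgeR, where 54.3% and 46.1% of all tested genes were called. Of the 4, 0 and 2 had an unadjusted p under 0.05, and DESeq2 called 0 and 0. With DESeq2 size factors, or without the HEK-control or the HEK-Jag1Ndr well beside C2C12-Notch1, 1 was higher in HEK-Jag1Ndr than in HEK-control. SDHA, which oxidises succinate, stood at 196 and 209 CPM in HEK-control, 197 and 197 in HEK-Jag1WT and 236 and 213 in HEK-Jag1Ndr. It was higher in HEK-Jag1Ndr than in HEK-Jag1WT by 0.19 (SE 0.061, adjusted p = 0.00689), while SDHC, a membrane anchor, was lower at -0.22 (SE 0.088, adjusted p = 0.0278). SDHB, the iron-sulphur subunit, and SDHD, the other anchor, differed at -0.15 and 0.12 there, with adjusted p values of 0.0859 and 0.332. DESeq2 called 0 of the 4 between the Jag1 lines. The SDHA call was lost without either HEK-Jag1WT well, and the difference was 0.08 without the HEK-Jag1Ndr well beside C2C12-control (adjusted p = 0.434). The SDHC call was lost without any 1 of the 4, at -0.22 to -0.27. Reads of SDHA can be split with its pseudogenes SDHAP1, SDHAP2 and SDHAP3, whose levels were 3.47, 5.45 and 20.5 RPKM.

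SDHAF1, which helps to insert iron-sulphur clusters into complex II, fell in HEK-Jag1Ndr while none of the complex II subunits was called there. It stood at 53.1 and 60.6 CPM in HEK-control, 61.0 and 54.1 in HEK-Jag1WT and 30.8 and 32.04 in HEK-Jag1Ndr. The HEK-Jag1Ndr wells lay below all others, with a log2 difference of -0.88 from HEK-control (SE 0.10, adjusted p = 8.9e-11) and -0.87 from HEK-Jag1WT (SE 0.11, adjusted p = 1.4e-10). It was the largest fall of any of the 95 genes against HEK-control. Among all 11 assembly factors 1 was higher and 4 lower in HEK-Jag1Ndr than in HEK-control, with a median log2 difference of -0.25. Over all tested genes 22.6% were higher and 23.5% lower, with a median of -0.01. The median level of the 11 was 41.2 ± 5.43 RPKM (SD, n = 2) in HEK-control, 41.6 ± 2.76 in HEK-Jag1WT and 28.0 ± 0.303 in HEK-Jag1Ndr. In HEK-Jag1Ndr the middle gene of the 11 by RPKM is SDHAF1 itself, so this median follows that gene. Without the HEK-Jag1Ndr well beside C2C12-Notch1, or the HEK-control well beside C2C12-Notch1, 1 was higher and 2 lower, with medians of -0.14 and -0.05, and DESeq2 called 1 and 2.

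NDUFAF4, an assembly factor of complex I, was the exception and rose in both Jag1 lines. It stood at 94.0 and 108 CPM in HEK-control, 112 and 149 in HEK-Jag1WT and 121 and 142 in HEK-Jag1Ndr. All 4 Jag1 wells lay above both HEK-control wells. The log2 differences from HEK-control were 0.38 (SE 0.073, adjusted p = 1.15e-05) and 0.39 (SE 0.070, adjusted p = 3.67e-06). ATP5SL, another factor of complex I assembly despite its name, was lower in both, at -0.30 and -0.43, the first being lost without the HEK-Jag1WT well beside C2C12-control (-0.21, adjusted p = 0.111). COX7A2L, which joins complexes III and IV into supercomplexes, was lower in HEK-Jag1WT than in HEK-control at -0.50 (SE 0.081, adjusted p = 3.16e-07). NDUFAF6 was lower in HEK-Jag1Ndr than in HEK-Jag1WT at -0.49 (SE 0.19, adjusted p = 0.0265), a call lost without either HEK-Jag1WT well or the HEK-Jag1Ndr well beside C2C12-control (-0.54 to -0.38).

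In complex III, 4 of 9 subunits were higher and 2 lower in HEK-Jag1WT than in HEK-control, and 0 were higher and 3 lower in HEK-Jag1Ndr. At an unadjusted p under 0.05, 6 of the 9 differed in the second comparison, and DESeq2 called 0 higher and 2 lower there. Between the Jag1 lines 2 were higher in HEK-Jag1Ndr and 5 lower, with a median of -0.21. The 9 include UQCRHL, a near copy of UQCRH. It is among the 4 higher in HEK-Jag1WT (0.26, edgeR adjusted p = 0.0494) and the 5 lower between the Jag1 lines (-0.27, edgeR adjusted p = 0.0354). Over all tested genes 24.9% were higher and 29.4% lower in the first comparison, 22.6% and 23.5% in the second and 29.2% and 28.5% in the third. The summed RPKM of the 9 was 1216 ± 4.89 (SD, n = 2) in HEK-control, 1278 ± 32.2 in HEK-Jag1WT and 1071 ± 27.8 in HEK-Jag1Ndr. With DESeq2 size factors in place of TMM, or without the HEK-control well beside C2C12-Notch1, 2 were higher in HEK-Jag1Ndr than in HEK-control and 3 lower.

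UQCRFS1, the Rieske iron-sulphur protein that takes electrons from coenzyme Q, had 3 separate levels. They were 143 and 143 CPM in HEK-control, 174 and 170.5 in HEK-Jag1WT and 107 and 114 in HEK-Jag1Ndr. The log2 difference from HEK-control was 0.27 in HEK-Jag1WT (SE 0.066, adjusted p = 0.000396) and -0.37 in HEK-Jag1Ndr (SE 0.067, adjusted p = 5.88e-06), and that between the Jag1 lines -0.64 (SE 0.067, adjusted p = 1.25e-12). UQCRC2, a structural core protein, was lower in both Jag1 lines: 272 and 265 CPM in HEK-control, 198 and 196 in HEK-Jag1WT and 183 and 177 in HEK-Jag1Ndr. Its log2 differences from HEK-control were -0.45 (SE 0.058, adjusted p = 1.63e-09) and -0.58 (SE 0.057, adjusted p = 4.1e-13). UQCRC1, its partner, was lower in HEK-Jag1WT than in HEK-control, at -0.42, and stood at -0.01 in HEK-Jag1Ndr against HEK-control, which did not pass. UQCRH was lower in HEK-Jag1Ndr than in HEK-Jag1WT at -0.31 (SE 0.070, adjusted p = 0.000137). Reads can be shared between UQCRH and its near copy UQCRHL, whose log2 difference there was -0.27, and between UQCRB and its pseudogene UQCRBP1.

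**Figure D3:**
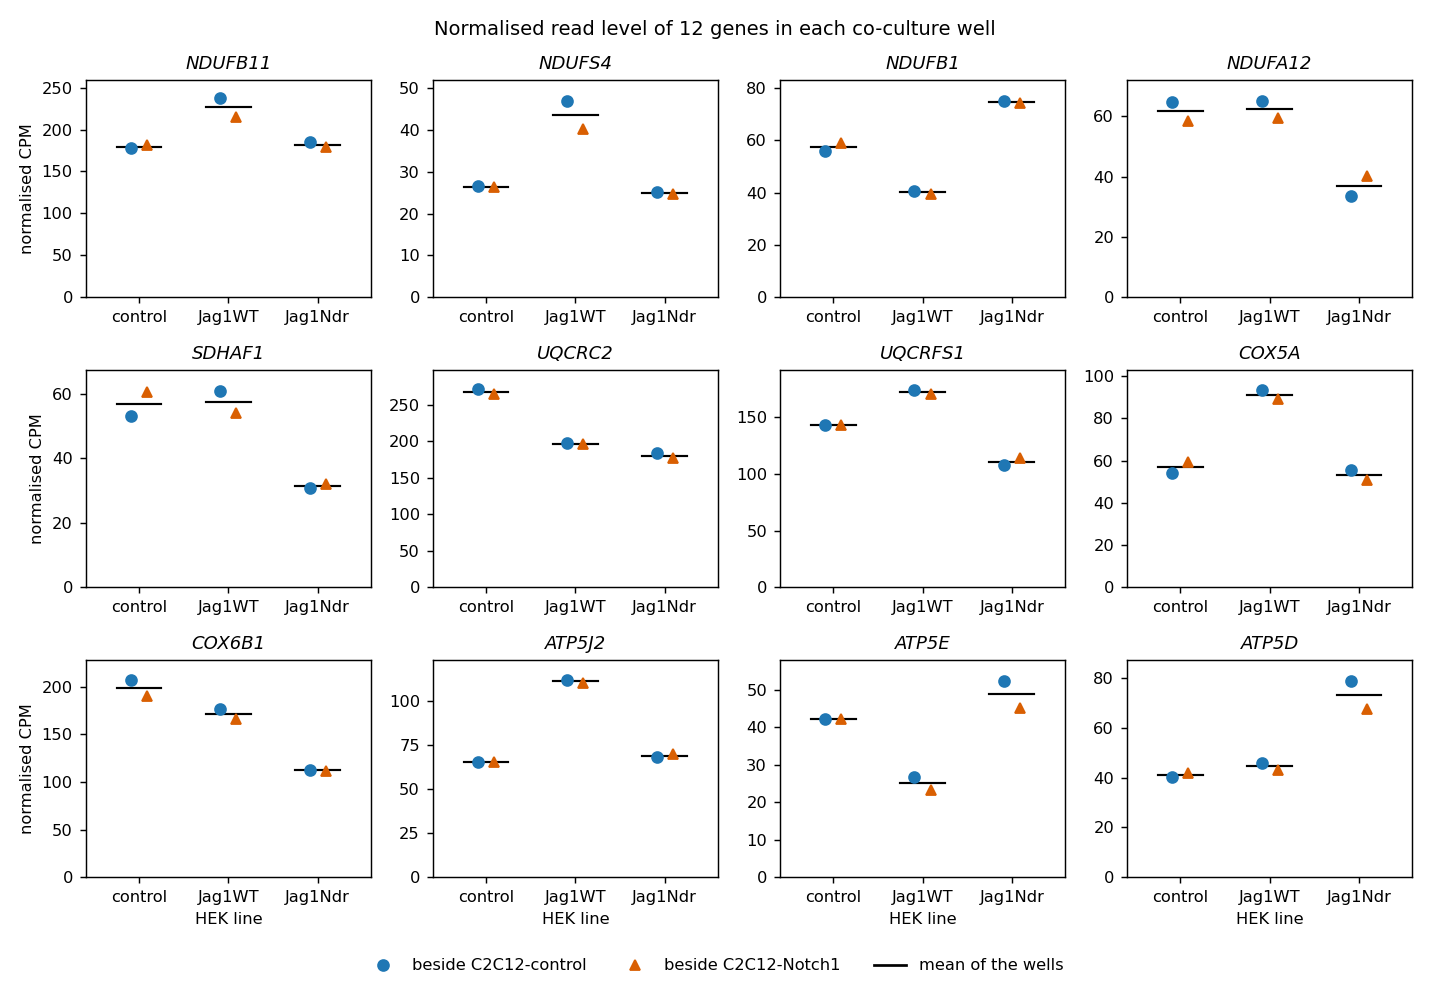
Normalised CPM of 12 genes in each of the 6 wells, by HEK line, with circles for wells beside C2C12-control, triangles for wells beside C2C12-Notch1 and a bar for their mean. The paired wells of a line lie close together, and NDUFS4, COX5A and ATP5J2 stand high in HEK-Jag1WT, SDHAF1, NDUFA12 and COX6B1 low in HEK-Jag1Ndr.

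In complex IV, 3 of 12 subunits were higher and 4 lower in HEK-Jag1WT than in HEK-control, and 2 higher and 3 lower in HEK-Jag1Ndr. Between the Jag1 lines 3 were higher in HEK-Jag1Ndr and 6 lower. The shares of all genes higher and lower were 24.9% and 29.4%, 22.6% and 23.5%, and 29.2% and 28.5% in the same order. The summed RPKM of the 12 was 2359 ± 31.7 (SD, n = 2) in HEK-control, 2430 ± 79.7 in HEK-Jag1WT and 2146 ± 47.9 in HEK-Jag1Ndr. COX5A, a subunit of the matrix side, stood at 54.3 and 59.1 CPM in HEK-control, 93.3 and 89.0 in HEK-Jag1WT and 55.3 and 51.0 in HEK-Jag1Ndr. Both HEK-Jag1WT wells lay above the rest, with a log2 difference of 0.66 from HEK-control (SE 0.087, adjusted p = 1.71e-09). Between HEK-Jag1Ndr and HEK-Jag1WT it was -0.78 (SE 0.087, adjusted p = 1e-11).

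COX6B1, which faces the intermembrane space and takes part in dimer formation, was lowest in HEK-Jag1Ndr. Its levels were 207 and 190 CPM in HEK-control, 177 and 166 in HEK-Jag1WT and 113 and 112 in HEK-Jag1Ndr. The log2 difference of HEK-Jag1Ndr was -0.82 from HEK-control (SE 0.064, adjusted p = 3.85e-17) and -0.61 from HEK-Jag1WT (SE 0.066, adjusted p = 3.7e-12). COX4I1, the widely expressed form of the largest nuclear subunit, was lower in both Jag1 lines. It stood at 293 and 313 CPM in HEK-control, 253 and 234 in HEK-Jag1WT and 218 and 213 in HEK-Jag1Ndr, differing from HEK-control at -0.33 (SE 0.057, adjusted p = 1.79e-06) and -0.50 (SE 0.056, adjusted p = 2.23e-11). The first was -0.21 without the HEK-Jag1WT well beside C2C12-Notch1 (adjusted p = 0.0626). COX7A2 rose in HEK-Jag1Ndr, from 118 and 136 CPM in HEK-control to 169 and 174, by 0.43 (SE 0.065, adjusted p = 1.27e-07). NDUFA4, named for complex I but now placed in complex IV, was higher there by 0.34 (SE 0.091, adjusted p = 0.00125), a call lost without the HEK-control or the HEK-Jag1Ndr well beside C2C12-Notch1 (0.30 and 0.32). COX7C, the most abundant of the complex, was lower in HEK-Jag1Ndr than in HEK-Jag1WT at -0.25, or -0.16 without the HEK-Jag1Ndr well beside C2C12-control (adjusted p = 0.118), and COX7B was called in none of the 3 comparisons.

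In complex V, 6 of 16 subunits were higher and 0 lower in HEK-Jag1Ndr than in HEK-control by edgeR. In this comparison 22.6% of all genes were higher and 23.5% lower. Of the 16, 7 had an unadjusted p under 0.05 in either direction, and DESeq2 called 3 and 0. In HEK-Jag1WT 4 were higher and 3 lower, against 24.9% and 29.4% of all genes. Between the Jag1 lines 7 were higher in HEK-Jag1Ndr and 6 lower, against 29.2% and 28.5% of all genes. Without the HEK-Jag1Ndr well beside C2C12-Notch1, the count in HEK-Jag1Ndr was 3 higher and 0 lower, and without the HEK-control well beside C2C12-Notch1 it was 4 and 0. The summed RPKM of the 16 was 2569 ± 4.41 (SD, n = 2) in HEK-control, 2822 ± 114 in HEK-Jag1WT and 2786 ± 107 in HEK-Jag1Ndr.

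ATP5D, the delta subunit of the central stalk, stood at 40.4 and 42.0 CPM in HEK-control, 46.0 and 43.3 in HEK-Jag1WT and 79.0 and 67.4 in HEK-Jag1Ndr. Both HEK-Jag1Ndr wells lay above the other 4, with a log2 difference of 0.80 from HEK-control (SE 0.093, adjusted p = 6.56e-11), the largest rise of the 95 genes in that comparison. ATP5E, the epsilon subunit beside it, stood at 42.1 and 42.1 CPM in HEK-control, 26.8 and 23.3 in HEK-Jag1WT and 52.3 and 45.2 in HEK-Jag1Ndr. It was lower in HEK-Jag1WT at -0.77 (SE 0.12, adjusted p = 9.61e-08), and higher in HEK-Jag1Ndr than in HEK-Jag1WT by 0.96 (SE 0.11, adjusted p = 7.16e-11). The pseudogene ATP5EP2, which can share reads with ATP5E, differed between the Jag1 lines in the same direction, by 0.58 (SE 0.13, adjusted p = 0.000123).

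ATP5J2, the f subunit of the membrane part, rose most in HEK-Jag1WT. It stood at 65.6 and 65.3 CPM in HEK-control, 112 and 110.4 in HEK-Jag1WT and 68.4 and 69.9 in HEK-Jag1Ndr. The log2 difference was 0.77 in HEK-Jag1WT against HEK-control (SE 0.080, adjusted p = 1.22e-12) and -0.69 in HEK-Jag1Ndr against HEK-Jag1WT (SE 0.078, adjusted p = 1.76e-11). The most abundant genes of the complex moved little: ATP5B rose by 0.23 in HEK-Jag1Ndr (SE 0.045, adjusted p = 2.6e-05), and ATP5O by 0.32 in HEK-Jag1WT (SE 0.052, adjusted p = 3.07e-07) and 0.17 in HEK-Jag1Ndr (SE 0.052, adjusted p = 0.00493), the last being lost without the HEK-Jag1Ndr well beside C2C12-Notch1 (0.14, adjusted p = 0.139). ATP5S, known as coupling factor B, rose by 0.47 in HEK-Jag1Ndr (SE 0.13, adjusted p = 0.00145), or 0.35 without the HEK-control well beside C2C12-Notch1 (adjusted p = 0.128).

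The 3 genes of the c subunit give one mature protein, which forms the rotating ring, and they did not move together. ATP5G1 was lower in HEK-Jag1WT than in HEK-control at -0.59 (SE 0.13, adjusted p = 0.000108), from 33.8 and 28.9 CPM to 22.2 and 19.6. ATP5G3 was higher in HEK-Jag1Ndr than in HEK-control by 0.26 (SE 0.071, adjusted p = 0.00227), and ATP5G2 was lower in HEK-Jag1Ndr than in HEK-Jag1WT at -0.23 (SE 0.069, adjusted p = 0.00334). ATP5G3 stood at 0.16 without the HEK-Jag1Ndr well beside C2C12-Notch1 (adjusted p = 0.22) and at 0.18 without the HEK-control well there, and ATP5G2 at -0.17 without the HEK-Jag1WT well beside C2C12-control (adjusted p = 0.179), each losing its call. The summed CPM of the 3 genes was 264 and 257 in HEK-control, 268 and 244 in HEK-Jag1WT and 273 and 263 in HEK-Jag1Ndr, so that the 3 lines overlapped in the sum.

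Since members of one complex moved apart, each gene was set beside its neighbours on the chromosome, taking the 5 tested genes on either side that are not oxidative phosphorylation genes themselves. The gene order came from the RefSeq annotation of GRCh38.p14, which placed 94 of the 95. Of the called genes, the median of the flanking genes had the same sign for 36 of 46 in HEK-Jag1WT against HEK-control, 25 of 28 in HEK-Jag1Ndr against HEK-control and 44 of 55 between the Jag1 lines. Over all other called genes in the table the shares were 70.5%, 69.7% and 78.5%. Across the 94 genes, Pearson's r between a gene and its flanking median was 0.51, 0.65 and 0.66 and Spearman's rho 0.48, 0.47 and 0.59. Over 13318 other genes r was 0.36, 0.42 and 0.41 and rho 0.38, 0.40 and 0.51. These are descriptions across genes of the same wells, and flanking windows of close genes overlap.

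**Figure D4:**
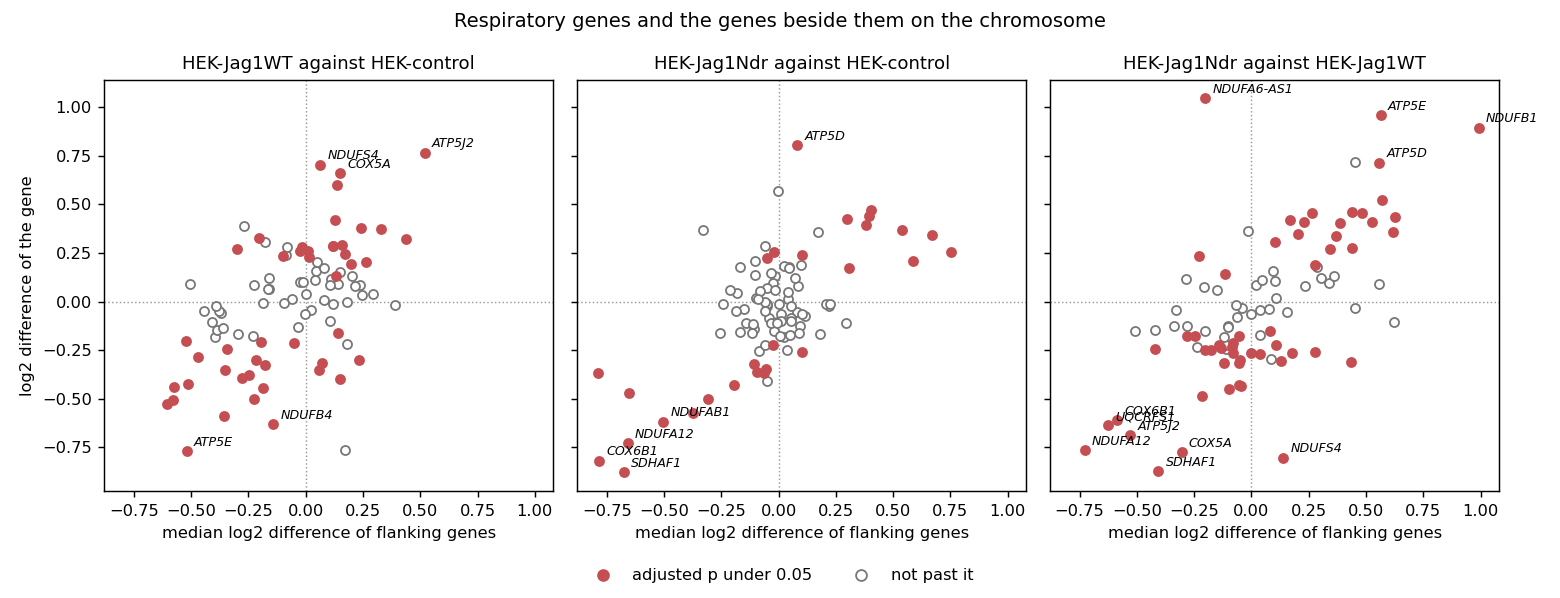
The log2 difference of each of 94 genes against the median log2 difference of its 10 flanking genes, in the 3 comparisons of HEK lines. Filled points have an adjusted p under 0.05 and names are given past 0.6. COX6B1, SDHAF1, NDUFA12 and NDUFB1 lie where their neighbours moved the same way, NDUFS4 and ATP5D near a flanking median of 0 in 1 or more comparisons.

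The log2 difference of COX6B1 in HEK-Jag1Ndr against HEK-control was -0.82, and all 10 flanking genes were called lower, with a median of -0.78 and a range from -1.30 (IGFLR1) to -0.57 (LIN37). SDHAF1 lies 12 tested genes away from COX6B1, and 8 of its 10 flanking genes were lower, with a median of -0.68. UQCRFS1, which fell by 0.37 in HEK-Jag1Ndr, had a flanking median of -0.79. NDUFA12 fell by 0.73 with a flanking median of -0.66, and UQCRC2 and NDUFAB1, also 12 tested genes apart, were lower, at -0.58 and -0.62, with flanking medians of -0.37 and -0.50. NDUFB1 rose by 0.90 between the Jag1 lines, with 10 of 10 flanking genes higher and a median of 0.99. ATP5J2 rose by 0.77 in HEK-Jag1WT with 9 of 10 flanking genes higher and a median of 0.52, and NDUFB7 fell by 0.51 with a flanking median of -0.58.

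Other genes moved apart from their neighbours in 1 or more comparisons. NDUFS4 rose by 0.71 in HEK-Jag1WT with a flanking median of 0.06, and fell by 0.80 between the Jag1 lines with a median of 0.14. ATP5D rose by 0.80 in HEK-Jag1Ndr against HEK-control with a flanking median of 0.08, although against HEK-Jag1WT it rose by 0.72 with a flanking median of 0.56 and 6 flanking genes higher. UQCRFS1 was 0.27 higher in HEK-Jag1WT while its flanking median was -0.30, and NDUFB11 0.33 higher with a flanking median of -0.20, where 2 of its 10 flanking genes were higher and 4 lower. NDUFA6-AS1 was higher in HEK-Jag1Ndr than in HEK-Jag1WT by 1.05 (SE 0.33, adjusted p = 0.00496) on 163 reads in all, a call lost without the HEK-Jag1Ndr well beside C2C12-control (0.74) or the HEK-Jag1WT well beside C2C12-Notch1 (0.80). It overlaps NDUFA6, which was lower at -0.25, a call lost without any 1 of the 4 Jag1 wells. The libraries do not mark strand, so their reads cannot be told apart.

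Human cells beside C2C12-Notch1 were compared with those beside C2C12-control over the 3 HEK lines. Of the 95 genes 1 was called, NDUFAF4, against 4.84% of all tested genes, 3.07% higher and 1.77% lower. NDUFAF4 was higher beside C2C12-Notch1 by 0.28 (SE 0.058, edgeR adjusted p = 0.00121), in 3 of 3 HEK lines. It was not called without either HEK-Jag1WT well, and the count over the 95 genes was 5 or 4 without the HEK-control well beside C2C12-Notch1 or beside C2C12-control. Of the 78 subunits 0 were called by edgeR, 6 had an unadjusted p under 0.05 and DESeq2 called 0. In the mouse table Ndufaf4 was also higher in the C2C12-Notch1 wells, by 0.73 (adjusted p = 6.26e-10), and the share of mouse reads differed between these wells as given above. Its part in the human value was not tested.

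The mouse genes of the same symbols were read from the same libraries, and 83 of the 95 had a tested mouse gene. Between wells with different HEK lines, 0 of the 83 were called by edgeR in each of the 3 comparisons, with 2, 2 and 3 at an unadjusted p under 0.05, against 4.46%, 0.528% and 2.03% of all tested mouse genes. No other tool was run on the mouse table. The SD of their log2 differences was 0.12, 0.13 and 0.14, against 0.30, 0.28 and 0.35 for the human genes. Between the C2C12 lines, 39 of the 83 were higher in C2C12-Notch1 and 8 lower, or 56.6%, against 57.8% of all tested mouse genes called. The median was 0.19, against 0.003 over all tested mouse genes. All tested mouse genes were not counted by direction, so the split of 39 and 8 has no background here. Ndufb11 did not pass there, at 0.06 (adjusted p = 0.531).

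**Figure D5:**
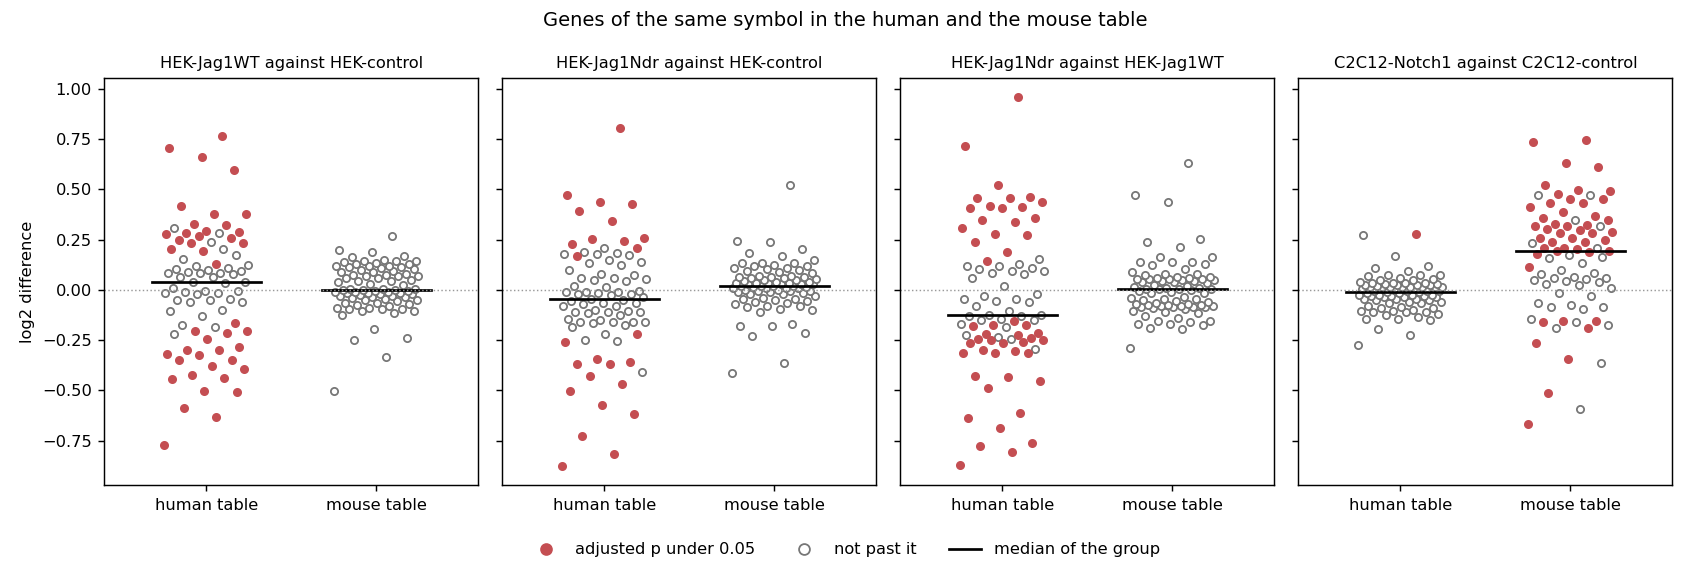
The log2 difference of 83 genes in the human table and of the mouse genes of the same symbol in the mouse table, for the 3 comparisons of HEK lines and for the C2C12 lines. Filled points have an adjusted p under 0.05 and bars are medians. In the comparisons of HEK lines the filled points are all human, and in the comparison of C2C12 lines all but 1 are mouse.

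Other genes of the pathway, taken from lists of known function, also changed in both directions. Their counts stand against 24.9% of all genes higher and 29.4% lower in HEK-Jag1WT, and 22.6% and 23.5% in HEK-Jag1Ndr. Of 11 nuclear subunits and electron carriers with other names, 2 were higher and 2 lower in HEK-Jag1WT than in HEK-control, and 3 and 2 in HEK-Jag1Ndr. CYCS, cytochrome c itself, was higher in HEK-Jag1Ndr than in HEK-control by 0.42 (SE 0.055, adjusted p = 2.76e-09). C14orf2, a small ATP synthase subunit, was lower in HEK-Jag1WT at -0.57 and higher in HEK-Jag1Ndr by 0.31. Of 34 assembly factors with other names 5 were higher and 12 lower in HEK-Jag1WT, and 4 and 7 in HEK-Jag1Ndr. LRPPRC, which stabilises mitochondrial mRNA, was lower in HEK-Jag1WT at -0.45, and ATPAF2, an assembly factor of ATP synthase, lower in HEK-Jag1Ndr at -0.84.

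Of 17 regulators of mitochondrial biogenesis 8 were higher and 1 lower in HEK-Jag1WT than in HEK-control, with a median of 0.28 against -0.03 over all genes. In HEK-Jag1Ndr 4 were higher and 0 lower by edgeR, with 4 at an unadjusted p under 0.05 in either direction. Between the Jag1 lines 2 were higher in HEK-Jag1Ndr and 6 lower, against 29.2% and 28.5% of all genes. PPRC1, a coactivator of the PGC-1 family, was higher by 0.58 in HEK-Jag1WT and 0.23 in HEK-Jag1Ndr. PPARGC1A, of the same family, was higher in HEK-Jag1Ndr than in HEK-Jag1WT by 1.69 (SE 0.39, edgeR adjusted p = 0.000188). The lowest value of the list in HEK-Jag1WT against HEK-control was -1.81, that of PPARGC1A. In HEK-Jag1Ndr against HEK-control no value of the list lay below -0.13, so PPARGC1A was low in HEK-Jag1WT and not raised in HEK-Jag1Ndr. GABPA, a subunit of nuclear respiratory factor NRF-2, was higher by 0.71 in HEK-Jag1WT. Of 18 citric acid cycle genes 6 were higher and 2 lower in HEK-Jag1WT, 5 and 3 in HEK-Jag1Ndr, and MDH2, mitochondrial malate dehydrogenase, was higher by 0.80 and 0.27. Of 11 genes of coenzyme Q synthesis 3 were higher and 2 lower in HEK-Jag1WT, and 2 and 3 in HEK-Jag1Ndr. COQ7 was lower than in HEK-control in both Jag1 lines, at -0.51 and -0.80. Of 76 genes of the mitochondrial ribosome 22 were higher and 25 lower in HEK-Jag1WT, and 13 and 25 in HEK-Jag1Ndr. The first share called, 61.8%, stands beside 54.3% of all genes.

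Of 17 glycolysis genes 4 were higher and 7 lower in HEK-Jag1WT than in HEK-control, and 6 and 4 in HEK-Jag1Ndr. HK2, hexokinase 2, was lower in HEK-Jag1WT at -1.39 (SE 0.074, adjusted p = 4.09e-25). Beside C2C12-Notch1, 7 of the 17 were lower and 0 higher, against 1.77% lower and 3.07% higher over all tested genes. GAPDH stood at -0.62 there (SE 0.035, edgeR adjusted p = 6.25e-23), a call lost without the term for the HEK line. In the same comparison 1 of the 95 oxidative phosphorylation genes was called and their median was -0.01, and the difference between the lists was not tested. The share of mouse reads was lower in the same wells, and its part in the values of the glycolysis genes was not tested.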

How the data were processed

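RNA of 6 co-culture wells was sequenced as poly(A) libraries without strand marking, and human and mouse gene tables were analysed. Reads were aligned with STAR to hg19 and mm9, per the submitters' processing notes. No source used here gives the STAR version or the counting program. Gene read counts were deposited by the authors with RPKM values, which the authors scaled to gene model length and depth. From the counts, 448 repeated human entries were left out, and edgeR 4.0.16 (quasi-likelihood, robust, TMM, filterByExpr) in R 4.3.3 fitted the HEK line and the C2C12 line over 13596 human and 11365 mouse genes, with 2 residual degrees of freedom, a common biological variation of 3.48% and 3.89%, and Benjamini-Hochberg adjusted p under 0.05. Replicate numbers follow accession order only. The members and all gene lists were chosen with earlier results of these data known. Genes named by rule were NDUFB11, up to 8 called members per direction and comparison by size, the highest of each complex, complex II, isoform pairs, members near the read limit, flanking genes and up to 3 genes of each other list by smallest p. Others were chosen after their values were seen. The fit was tested on simulated data in which few genes changed, equally up and down. That test does not cover lines that differ in as many genes as these. Alternatives were DESeq2 1.42.0, other scalings, no filter, limma 3.58.1 on log2 RPKM with pseudocounts of 0.1 and 1, no term for the other line, and leaving out each well.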

Additional observations from a re-analysis of the deposited data

Results flagged for a closer look

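NDUFA11, a membrane-arm subunit of complex I, had values of opposite sign beside the 2 mouse lines in HEK-Jag1Ndr against HEK-control. Its log2 difference was 0.20 in the C2C12-control wells and -0.14 in the C2C12-Notch1 wells, each from 1 well against 1 well. Over both it was 0.02 (SE 0.067, edgeR adjusted p = 0.848), which did not pass, and the difference between the C2C12 lines was not tested.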

How the results depend on the processing

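With DESeq2, 21 genes (10 higher, 11 lower) differed between HEK-Jag1WT and HEK-control, 16 (6 and 10) between HEK-Jag1Ndr and HEK-control, 26 (14 and 12) between the Jag1 lines and 0 between partner lines, and the cause was not tested. The partner comparison also gave 0 with limma on log2(RPKM + 0.1), 0 with limma on log2(RPKM + 1) and 0 without the term for the HEK line. When 1 well was left out, counts ranged from 28 to 47, from 19 to 36, from 35 to 62 and from 0 to 5. With DESeq2 size factors the first comparison gave 27 higher and 21 lower, and with library size alone 28 and 21, beside 22 and 24. Under every alternative run, 20, 14, 25 and 0 of the calls held. Between the Jag1 lines more genes were lower than higher, 33 and 23, where DESeq2 had more higher. Among the 44 genes followed under each alternative, 0 called differences changed sign. The wells pair across HEK lines by their C2C12 line, which the model already holds as a term. The labels give no replicate numbers. With 1 well per combination, an interaction of the lines could not be fitted.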
